A study of Mus musculus with 4 samples.

Results

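The suppressors of cytokine signalling (SOCS) are 8 genes, Socs1 to Socs7 and Cish, and were compared here between CD4 cells of sanroque and wild type mice. The genes were chosen by family name, with the sanroque minus wild type differences of these same arrays already known. Those differences therefore describe the family, and the adjusted p-values given with them are no independent evidence. Of 12393 genes that a probe set named alone, the family made up 8, covered by 16 probe sets. No probe set named a member together with another gene. At least 1 probe set of each of the 8 genes passed the filter on low values, and 12 of 16 probe sets passed it in all.

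Each genotype was measured on 2 Affymetrix MOE430A arrays. The san/san arrays held RNA of mice homozygous for sanroque, a recessive variant made with the mutagen ENU in male C57BL/6 mice and found through antinuclear autoantibodies. It lies in Rc3h1, which encodes Roquin-1, a protein that binds mRNAs and promotes their decay. The +/+ arrays held RNA of wild type mice. The labels do not give age, sex or number of mice per array, so the spread between arrays of a genotype may be technical. The number 1 arrays of both genotypes were hybridised and scanned on day 1 and the number 2 arrays on day 2. The scanner records of the number 1 arrays name sorted T cells, and that of +/+ array 2 has the entry CBA, whose meaning is not stated. All 4 arrays had a trimmed mean signal, taken without the 2% lowest and highest values, of 99.59 to 99.97. With 2 arrays a genotype, the number of arrays sets the precision.

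SOCS proteins are feedback inhibitors. Cytokines bind receptors that carry JAK kinases, the kinases phosphorylate STAT transcription factors, and STATs switch on SOCS genes whose products bind the receptor or the kinase and end the signal. All 8 proteins share an SH2 domain, which binds phosphorylated tyrosine, and a SOCS box, which recruits Elongin B and C and a cullin to form a ubiquitin ligase. In T cells Socs1 restrains interferon gamma and common gamma chain cytokines, Socs3 restrains cytokines that signal through gp130 (Il6st), and Cish and Socs2 are induced through STAT5.

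Socs3 was higher in san/san on all 3 of its probe sets, with mean signals 2.35 to 2.62 times those of +/+, and these were the 3 of 12 tested family probe sets that passed the test (limma, adjusted p under 0.05). The other 9 did not pass. No family probe set passed limma as lower, and 0 had an unadjusted p under 0.05 in that direction. Over all 13579 probe sets tested, 0.67% passed as higher and 0.39% as lower. Because the family was picked with these values known, nothing is read from that contrast of shares.

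Socs3 probe set 1455899_x_at read 562.6 and 701.6 on the san/san arrays, against 234.8 and 247.3 on the +/+ arrays. Both san/san arrays were above both +/+ arrays, and the means were 632.1 ± 98.3 in san/san and 241.05 ± 8.84 in +/+ (SD, n = 2 each). On the log2(signal + 6) scale, which understates the change of dim probe sets, san/san exceeded +/+ by 1.36 with a standard error of 0.18 (limma adjusted p = 0.00441). The difference was 1.24 between the day 1 arrays and 1.48 between the day 2 arrays. Bulk RNA was measured, so more Socs3 RNA per cell and more cells that carry it cannot be told apart.

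The other Socs3 probe sets were higher in san/san too. Probe set 1416576_at read 185.4 and 218.0 in san/san, against 84.3 and 87.6 in +/+, a log2 difference of 1.17 with a standard error of 0.19 (limma adjusted p = 0.0154). Probe set 1456212_x_at read 220.5 and 223.8 in san/san, against 107.6 and 80.1 in +/+, a log2 difference of 1.21 with a standard error of 0.20 (limma adjusted p = 0.0176). The genotypes did not overlap on either. Within a day the difference of these probe sets lay between 1.00 and 1.42, and every one of the 6 values over the 3 probe sets was above 0. The 3 probe sets read the same RNA, so they are not replicates. The ending _x_at marks a design in which some probes can also bind other transcripts, and 1416576_at carries no such mark. Among all 13579 tested probe sets ordered from the highest difference down, the 3 stood at ranks 76, 110 and 118.

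With the day of hybridisation fitted as a block the same 3 probe sets passed (limma adjusted p = 1.07e-07 to 1.68e-05), where 6.27% of all probe sets did. All 3 calls ended when limma's variance trend was left out (adjusted p = 0.101 to 0.169). Without the filter on dim probe sets, or without san/san array 2, 1455899_x_at alone passed, and the other pair had adjusted p between 0.0551 and 0.0899. Without +/+ array 2, the one with the entry CBA, all 3 passed (limma adjusted p = 0.0115 for 1416576_at, 0.00056 for 1455899_x_at and 0.0378 for 1456212_x_at).

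The CD4 cells carried the transcripts of their label, with Cd4 at 585.9 and 570.2 in san/san and 533.3 and 613.5 in +/+, and of 8 tested CD4 T cell markers 0 passed limma and 1 had an unadjusted p under 0.05. Some markers of other cells also differed between genotypes. Of 8 tested myeloid markers 4 rose (Ngp, Lyz2, S100a8 and S100a9), where 0.776% of all 7860 genes tested did. All 8 had a positive difference, and their summed signal was 2551.8 and 2575.2 in san/san, against 1127.7 and 1217.8 in +/+. Without the variance trend the calls of S100a8 (adjusted p = 0.128) and S100a9 (0.137) ended. None was at 0 on any array, and the ninth, Itgam, lay below the filter at 18.8 and 13.6 in san/san, against 13.0 and 8.9 in +/+. Neutrophils and monocytes also express Socs3, and the part of these cells in the Socs3 difference was not tested. The 3 tested red cell markers summed to 1481.0 and 1661.0 in san/san, against 996.8 and 1021.7 in +/+, and none was at 0. Of these 0 passed limma, although all 3 had an unadjusted p under 0.05 and rose with the block, where 3.92% of all genes did. The share of all genes with an unadjusted p under 0.05 was not computed, so nothing is read from such counts. Another red cell marker, the haemoglobin gene Hba-a1, lay below the filter. It read 26.2 and 7.3 in san/san, against 10.4 and 4.4 in +/+, and the genotypes overlapped. Of 6 CD8 T or NK cell markers and 5 B cell markers 0 passed limma, with 1 and 0 at an unadjusted p under 0.05. The CD8 T or NK sums were 489.3 and 542.7 in san/san, against 487.3 and 438.4 in +/+, and the B cell sums 1096.9 and 1144.8 in san/san, against 1067.8 and 1152.4 in +/+, with no marker at 0.

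**Figure D1:**
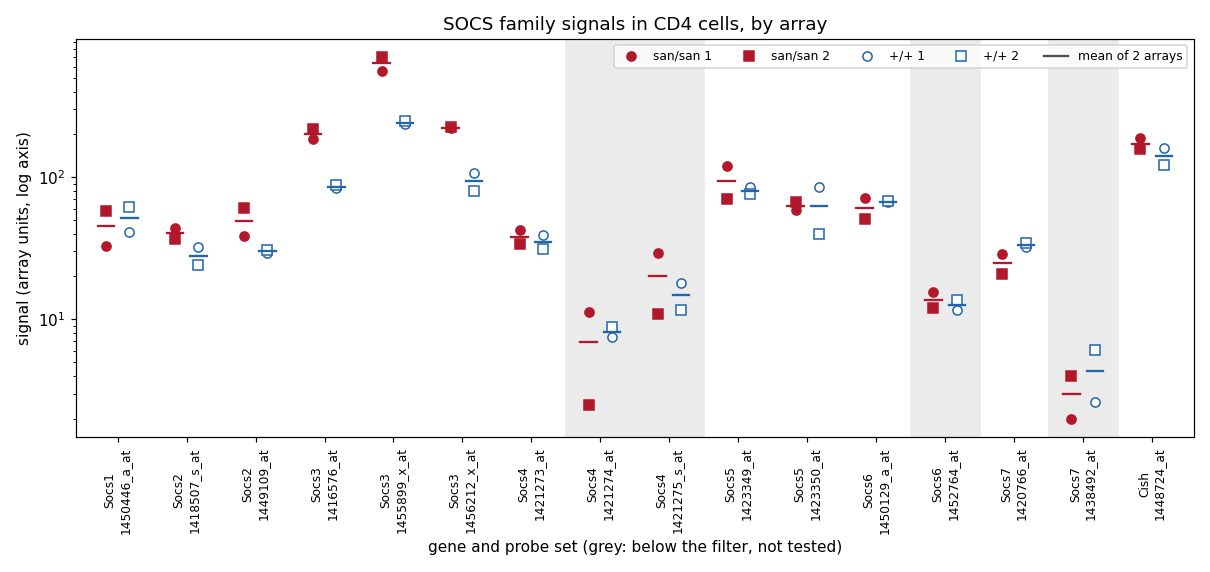
Signal of each SOCS family probe set on each array (log axis, array units), with filled red marks for san/san and open blue marks for +/+, circles for number 1 and squares for number 2 arrays, and bars for the mean of 2 arrays; grey columns mark the 4 probe sets below the filter. The 3 Socs3 probe sets separate by genotype, with 562.6 and 701.6 in san/san above 234.8 and 247.3 in +/+ for the brightest.

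Cish and Socs2 are among the members that STAT5 induces after interleukin 2 and related cytokines, and Cish acts on the interleukin 2 receptor and on T cell receptor signalling. Cish read 187.9 and 156.9 in san/san, against 159.2 and 121.5 in +/+. The genotypes overlapped, and the log2 difference of 0.29 had a 95% interval of -0.16 to 0.75 (limma adjusted p = 0.732). Socs2 also restrains growth hormone signalling. Its probe set 1449109_at read 38.4 and 60.4 in san/san, against 29.5 and 30.6 in +/+. The 1418507_s_at probe set of Socs2 read 43.7 and 36.8 in san/san, against 32.0 and 24.2 in +/+. On both Socs2 probe sets both san/san arrays lay above both +/+ arrays. The log2 differences of 0.59 and 0.45 had 95% intervals of -0.12 to 1.30 and -0.29 to 1.18, and neither passed (limma adjusted p = 0.619 and 0.755). Both intervals include 0 and also 1.17, the smallest of the Socs3 differences.

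Socs1, the inhibitor of interferon gamma signalling, read 32.6 and 58.2 in san/san, against 40.9 and 62.0 in +/+. Here the arrays separated by day and not by genotype, with both day 2 arrays above both day 1 arrays. The log2 difference was -0.18, with a 95% interval of -0.91 to 0.54 (limma adjusted p = 0.932).

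Socs4 and Socs5 form a pair of related proteins that were described as inhibitors of epidermal growth factor receptor signalling, and Socs5 also of interleukin 4 signalling. Probe set 1421273_at of Socs4 read 42.3 and 33.6 in san/san, against 39.2 and 31.3 in +/+, a log2 difference of 0.09 (95% interval -0.61 to 0.79). Probe set 1423349_at of Socs5 read 118.9 and 70.1 in san/san, against 84.7 and 76.3 in +/+. Its day 1 difference was 0.46 and its day 2 difference -0.11. The other Socs5 probe set, 1423350_at, read 58.7 and 66.5 in san/san, against 85.9 and 39.5 in +/+, and its days went the opposite way, with -0.51 on day 1 and 0.67 on day 2. The genotypes overlapped on each of these probe sets. Both days of Socs4 lay near 0, at 0.10 and 0.09, and neither Socs5 probe set had the same sign on both days.

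Socs6 and Socs7 are linked in other cells to receptor tyrosine kinase and insulin signalling. Socs6 probe set 1450129_a_at read 70.9 and 50.5 in san/san, against 67.0 and 67.8 in +/+, with overlap and a log2 difference of -0.16 (95% interval -0.70 to 0.39). Socs7 probe set 1420766_at read 28.9 and 20.8 in san/san, against 32.5 and 34.3 in +/+. Both san/san arrays lay below both +/+ arrays, but the log2 difference of -0.37 had a 95% interval of -1.17 to 0.44 (limma adjusted p = 0.852).

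Of the 12 tested family probe sets, 5 did not overlap as higher in san/san, 3 of them Socs3 and the other pair Socs2, and 1 did not overlap as lower. Among all tested probe sets 21.0% did not overlap as higher and 17.7% as lower. The median log2 difference over the 12 was 0.23, beside 0.01 over all probe sets tested. Socs3 supplied 3 of the 12 values, so this median does not describe a shift of the family as a whole. The adjusted p of the 9 that did not pass ran from 0.619 to 0.974, none of these 9 had an unadjusted p under 0.05 (lowest 0.0946), and with the day as a block none of them passed either. The 4 probe sets below the filter belonged to Socs4 (2 probe sets), Socs6 and Socs7, read between 2.0 and 29.5 over all arrays, and overlapped between genotypes. In a fit without the filter their lowest adjusted p was 0.952 (limma).

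**Figure D2:**
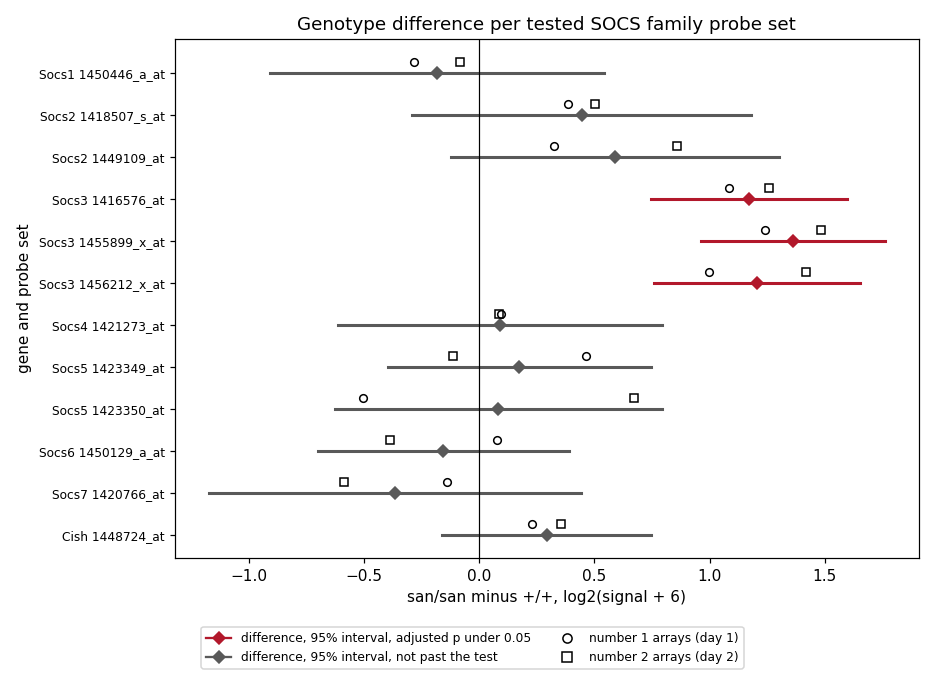
Difference between san/san and +/+ on the log2(signal + 6) scale for the 12 tested probe sets, with diamonds for the difference, bars for its 95% interval, and open circles and squares for the difference between the day 1 and the day 2 arrays. The 3 red Socs3 rows lie at 1.17 to 1.36 with both days above 0, and the 9 grey rows at -0.37 to 0.59 have intervals that include 0.

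The promoters of Socs3, Cish and Socs1 show which STAT and interferon response letters lie near the start of these genes. Windows of 250 bases before to 50 after the start were taken from RefSeq (GRCm38.p6), which matched 4 of the 8 members, and are written 5′ to 3′ on the gene's strand. Socs3 is shown as the member with the largest difference, and Cish and Socs1 were added for contrast after the values were seen. Capitals mark every match to the STAT motif TTCNNNGAA, which is its own reverse complement, or to the interferon response motif, 2 copies of GAAA with 2 bases between them, on either strand. The windows lie at chr11:117969317-117969616 on the minus strand for Socs3, chr9:107296409-107296708 on the plus strand for Cish and chr16:10785487-10785786 on the minus strand for Socs1.
Socs3: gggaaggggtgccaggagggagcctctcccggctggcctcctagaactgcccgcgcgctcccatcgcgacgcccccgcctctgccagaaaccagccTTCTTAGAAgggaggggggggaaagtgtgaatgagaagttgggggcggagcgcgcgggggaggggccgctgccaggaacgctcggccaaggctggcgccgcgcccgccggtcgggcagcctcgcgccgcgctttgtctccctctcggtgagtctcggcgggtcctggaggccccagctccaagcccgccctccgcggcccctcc
Cish: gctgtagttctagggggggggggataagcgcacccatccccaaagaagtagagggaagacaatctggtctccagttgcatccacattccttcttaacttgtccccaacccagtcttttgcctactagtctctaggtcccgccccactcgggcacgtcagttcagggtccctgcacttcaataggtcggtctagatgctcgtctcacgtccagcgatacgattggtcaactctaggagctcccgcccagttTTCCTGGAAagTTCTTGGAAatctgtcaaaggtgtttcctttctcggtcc
Socs1: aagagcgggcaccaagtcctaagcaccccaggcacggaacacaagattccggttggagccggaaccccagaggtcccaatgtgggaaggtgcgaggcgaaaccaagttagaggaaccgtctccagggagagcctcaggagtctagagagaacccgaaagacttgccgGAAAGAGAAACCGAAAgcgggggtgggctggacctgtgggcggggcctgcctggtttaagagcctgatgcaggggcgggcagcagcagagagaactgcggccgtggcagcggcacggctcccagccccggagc
The Socs3 window held 1 STAT motif, TTCTTAGAA, from base 97 of the window. The Cish window held 2, TTCCTGGAA from base 251 and TTCTTGGAA from base 262. The Socs1 window held no STAT motif and 2 overlapping interferon response motifs, from bases 168 and 174, and the window of Socs4 held neither. Of 32851 promoter windows in the table, 8.30% held the STAT motif and 3.44% the interferon response motif. A match describes the letters of the window, and binding was not measured. Socs3 and Cish both held the STAT motif, and whether it plays a part in the values of either gene was not tested.

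The genes around the family in the JAK-STAT pathway were taken from 8 lists with 104 genes, of which 69 were tested, each by its brightest probe set. In all 2 were called higher (Il21 and Jak3) and 2 fell (Fos and Junb), where 0.776% of all 7860 genes rose and 0.331% fell. Il21 was tested only because its san/san signals lifted its mean past the filter, and nothing is read from its part in the count. Fitted with the day as a block, 14 genes rose and 5 genes fell, where 3.92% and 2.12% of all genes did. The median log2 difference over all 7860 genes was 0.03, to be set beside each list's median. Counts at an unadjusted p under 0.05 have no share over all genes beside them, and nothing is read from them.

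Among cytokines, 5 of 25 were tested and 1 was called, as higher, while 1 more had an unadjusted p under 0.05, as lower. Il21, a cytokine that helper T cells make and that signals through STAT3, read 78.9 and 56.8 in san/san, against 16.1 and 13.4 in +/+ (limma adjusted p = 0.0307). Its mean was 67.85 in san/san and 14.75 in +/+, the second below the filter of 21.3, and the call ended without the filter (adjusted p = 0.168), without the variance trend (0.0507), and without san/san array 1 (0.259) or san/san array 2 (0.0649). Ifng, the gene of interferon gamma, went the other way and was named after its values were seen. It read 22.5 and 19.9 in san/san, against 37.9 and 56.2 in +/+ (log2 difference -0.94, limma adjusted p = 0.38). The Ifng mean was 21.2 in san/san, just below the filter, and 47.05 in +/+, so Ifng was tested only through its +/+ signals. Nothing is read from its unadjusted p, and without the filter its limma adjusted p was 0.593. Most other cytokine genes lay below the filter. Of 21 tested receptor chains 0 passed limma, 2 had an unadjusted p under 0.05, and the list's median log2 difference was 0.17. The interleukin 2 receptor chains had the largest differences. Il2rb read 160.9 and 211.7 in san/san, against 113.7 and 76.4 in +/+ (log2 difference 0.94, limma adjusted p = 0.114), and Il2ra read 66.8 and 71.3 in san/san, against 32.8 and 38.5 in +/+ (0.85, limma adjusted p = 0.227). With the day as a block these 2 of the list passed as higher (adjusted p = 0.00136 and 0.02). The gp130 chain Il6st, named after its values were seen as the receptor chain that Socs3 binds, read 332.2 and 406.7 in san/san, against 247.7 and 304.6 in +/+ (limma adjusted p = 0.515).

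Of 4 JAK kinases 1 rose. Jak3, which pairs with the common gamma chain, read 251.6 and 285.0 in san/san, against 141.3 and 122.7 in +/+, a log2 difference of 0.99 with a standard error of 0.19 (limma adjusted p = 0.0307). The genotypes did not overlap. The Jak3 call ended without the filter (adjusted p = 0.0872), without the variance trend (0.209), and without san/san array 2 (0.149) or +/+ array 2 (0.0726).

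Of 6 tested STAT genes 0 passed limma, 4 had an unadjusted p under 0.05, and 5 had a positive difference. Their median was 0.55, beside 0.03 over all genes tested. Stat4, which interleukin 12 activates, read 319.3 and 311.1 in san/san, against 111.9 and 186.8 in +/+ (log2 difference 1.09, limma adjusted p = 0.0584). Stat2, which acts in type I interferon signalling, read 86.5 and 105.8 in san/san, against 68.8 and 48.6 in +/+ (log2 difference 0.67, limma adjusted p = 0.362). Stat3, which drives Socs3 and was named after its values were seen, read 679.9 and 726.9 in san/san, against 433.9 and 585.4 in +/+ (log2 difference 0.48, limma adjusted p = 0.428). With the day as a block 4 STAT genes rose, Stat3 among them (adjusted p = 0.045).

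Of the 12 other inhibitors of the pathway 0 passed limma, 2 higher and 3 lower genes had an unadjusted p under 0.05, 6 were above 0 and 6 below, and the median was 0.01. The largest differences went opposite ways. The phosphatase gene Ptpn6 read 264.9 and 448.0 in san/san, against 582.8 and 585.9 in +/+ (limma adjusted p = 0.236). Ptpn11, also a phosphatase gene, read 362.1 and 435.2 in san/san, against 208.1 and 297.9 in +/+ (limma adjusted p = 0.255). Under the day block 1 of these inhibitors rose and 2 of them fell. Of 6 listed partners of the SOCS box in the ligase, only 4 were named alone by a probe set, and these 4 were tested. None passed limma with or without the block, and 0 had an unadjusted p under 0.05. All 4 differences were below 0, from -0.42 (Rnf7) and -0.22 (Cul2) to -0.04.

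Genes that STATs are known to switch on were listed by factor. Of 10 STAT5 target genes 0 passed limma and 2 higher and 1 lower gene had an unadjusted p under 0.05, with a median of 0.11. The largest differences were those of Il2ra and of the kinase gene Pim2, which read 194.4 and 258.7 in san/san, against 127.7 and 135.9 in +/+ (log2 difference 0.74, limma adjusted p = 0.15). With the block 2 STAT5 target genes rose and 1 fell. Of 9 STAT3 target genes 2 fell, Fos (log2 difference -4.80, limma adjusted p = 5.58e-07) and Junb (-2.76, limma adjusted p = 3.46e-05). Both also belong to the immediate early genes that many stimuli induce. In the STAT3 list 5 higher and 2 lower genes had an unadjusted p under 0.05. The median of this list was 0.47, and with the block 4 rose and 2 fell.

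**Figure D3:**
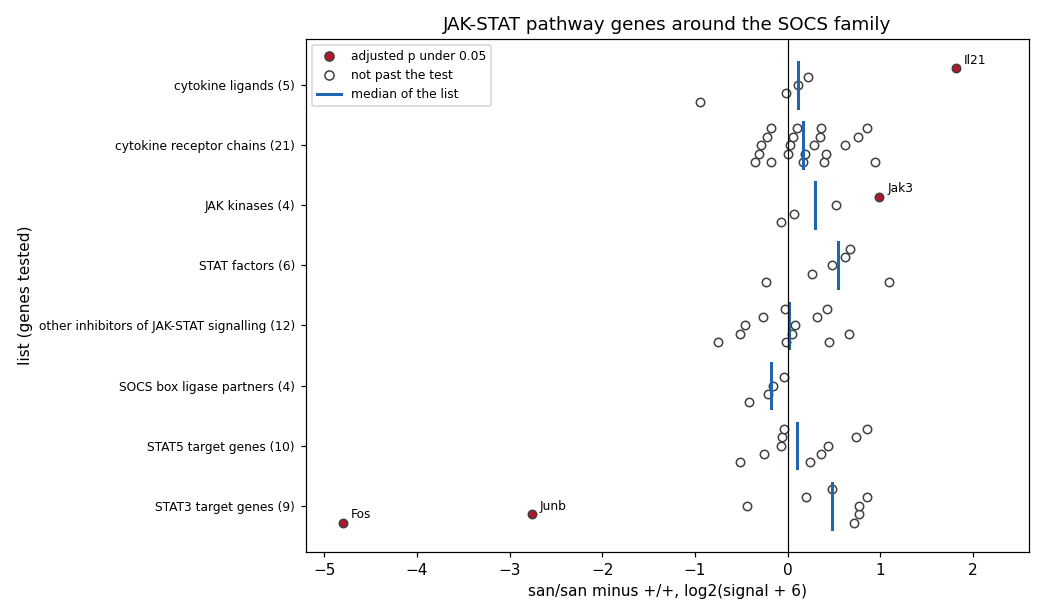
Difference between san/san and +/+ on the log2(signal + 6) scale for each tested gene of the 8 JAK-STAT lists, with red points for genes past the test, open points for the others and a blue bar for the list's median. Of 69 genes Il21 and Jak3 lie to the right as called higher, and Junb at -2.76 and Fos at -4.80 to the left as fallen.

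The tested probe sets of other genes whose values over the 4 arrays were most like those of the brightest Socs3 probe set were those of Adam19, Top2a, Eef1akmt1 and Pdxdc1. Likeness was the root mean square distance between log2 values centred on their own mean, and these lay 0.0467 to 0.0734 away over 4 arrays. Top2a, the DNA topoisomerase of dividing cells, read 100.7 and 115.5 in san/san, against 35.3 and 39.0 in +/+. Top2a and Eef1akmt1 passed limma (adjusted p = 0.016 and 0.0468), but not in the fit without the filter (0.109 and 0.223). Adam19 and Pdxdc1 did not pass (limma adjusted p = 0.15 and 0.166). Their +/+ means of 17.15 and 13.75 lay below the filter of 21.3, so they were tested only through their san/san signals. Since 4 arrays hold few patterns, many probe sets lie close to any one.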

How the data were processed

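RNA from CD4 cells was measured on 2 san/san and 2 +/+ arrays, and genotype and replicate number were read from the sample titles. The deposited intensity values are linear, with 1 for every probe set on each array, and cover 22690 probe sets of the MOE430A chip, a type named per the file headers. The arrays had been brought to a common trimmed mean near 100 before deposit. How probes were summarised is not given in the sources used here, and detection calls and cell-level values were not used. Signals were not rescaled. The 64 control probe sets and probe sets with a mean below the 40th percentile (21.3) were left out, and values were analysed as log2(signal + 6). Symbols came from the platform annotation (20393 probe sets with 1 symbol, 691 with several, 1555 unnamed besides controls), updated by gene identifier through RefSeq tables. Genotypes were compared over all 13579 remaining probe sets with limma 3.58.1 (R 4.3.3; lmFit, eBayes with a variance trend, no covariates), two-sided, with Benjamini-Hochberg adjustment and a threshold of 0.05.

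Same-numbered arrays shared a hybridisation and scan day per the file headers, so the number pairs them. Their deviations from the genotype mean correlated with 0.392 across probe sets, from 2 pairs. The members and gene lists were chosen with earlier results of these data known. Named were all members, of each list the genes past the test or otherwise the 2 with the largest absolute difference, and the 4 nearest genes by likeness. Any other gene is marked where it is named. One list of target genes is not reported here. Alternatives were quantile normalization, median centring, pseudocounts of 1 and 24, no filter or one at the 60th percentile, dropping the variance trend, blocks for the day or for title wording, leaving out each array, and gene means. The plots used matplotlib 3.10.9 in Python 3.11.15.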

Additional observations from a re-analysis of the deposited data

How the results depend on the processing

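The 3 family calls, all of Socs3, were also 3 under quantile normalization, median centring, both other pseudocounts, the stricter filter, the title wording as a block and the replicate block, which pairs arrays by day and changed no family call. They were 1 without the filter and 0 without the variance trend. Of the Socs3 probe sets, 1416576_at kept a difference of 1.17 but did not pass without the filter (adjusted p = 0.0655) or the trend (0.137), nor did 1456212_x_at at 1.21 (0.0812 and 0.169), and 1455899_x_at at 1.36 did not pass without the trend (0.101). With 1 array left out the family count ran from 1 to 3, lowest without san/san array 2, and the differences from 1.06 to 1.28 (1416576_at), 1.01 to 1.41 (1456212_x_at) and 1.20 to 1.52 (1455899_x_at). The family's median difference of 0.23 ran from 0.10 to 0.52, highest without +/+ array 1.

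None of the members that did not pass was called in any setting, but some changed sign. Socs2, Socs7 and Cish kept their sign in every setting that tested them. With 1 array left out, Socs1 ran from -0.55 to 0.19, Socs4 from -0.052 to 0.23, Socs5 from -0.18 to 0.53 (1423349_at) and from -0.42 to 0.59 (1423350_at), and Socs6 from -0.38 to 0.067. Socs4 was at -0.00057 under quantile normalization.

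Calls over all probe sets were 144, against 56 without the filter, 47 without the trend, 852 with the replicate block and 105 to 356 with 1 array left out, highest without +/+ array 1. Pathway genes called were 4, against 2 without the filter or without the trend, 19 with the replicate block, and 3 to 6 with 1 array left out, lowest without either san/san array and highest without +/+ array 1. With gene means 5 pathway genes were called, and with the title wording as a block 6. The cause of these changes in count was not tested. In fits without 1 array the lone array was taken to vary like the other genotype's, and with 2 arrays a genotype intervals are wide.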

Other observations

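Il4, a cytokine gene of helper T cells below the filter on low values, was picked out once its values were known. It read 30.6 and 25.9 in san/san, against 8.2 and 18.4 in +/+, a log2 difference of 0.88 (limma adjusted p = 0.724 in the fit without the filter). Both san/san arrays lay above both +/+ arrays, and the gene did not pass.

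The genes most like Socs7, the member with the largest difference below 0, were Padi2, Arpp19, Adnp2 and Slc25a29, at a distance of 0.00746 to 0.03 over the 4 arrays. None of them passed the test, and Padi2 read 88.0 and 65.8 in san/san, against 98.1 and 103.5 in +/+ (limma adjusted p = 0.651).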
